A study of Mus musculus with 14 samples.

Results

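The SNPs described here lie on the proximal mouse X chromosome, below 30 Mb (mm10), outside the gene bodies of Kdm6a, Ddx3x and Klhl13. Of 377 SNPs below that position, 14 in the 3 genes were left out, 7 in Kdm6a, 3 in Ddx3x and 4 in Klhl13. The remaining 363 of the 2239 X-linked SNPs spanned positions 6053582 to 21036728, so none lay in the last part of the interval. In the GENCODE vM21 annotation, 350 fell into the exons of a single gene, 8 into exons shared by 2 genes, and 5 hit no exon. By position, 166 were in coding sequence, 186 in a UTR and 6 in a noncoding exon. They belonged to 58 genes, with a median of 4.5 SNPs and a maximum of 23 per gene, and 55 of these genes were protein-coding.

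All libraries came from 1 line of female Setdb1+/+ Xist∆A/+ embryonic stem (ES) cells, derived from embryos with CAST sires. The labels give the dams as 129/C57, whereas the study's text gives them as 129. The maternal Xist∆A allele lacks the repeat needed for silencing, so the CAST X is the one inactivated (Xi) and the maternal X stays active (Xa). RNA was sequenced at day 0 from cells without virus, and at days 3 and 5 of differentiation from cells given retroviral non-silencing (Nons), shSetdb1.4 or shSetdb1.6 hairpins and puromycin. Each of the 7 conditions had 2 libraries from replicate experiments, so p-values measure the spread between repeats of 1 line. Setdb1 was not analysed here, so the knockdown was not checked, and the share of cells that had lost an X was not measured. The labels and the methods place transduction at different times, and the day 3 against day 0 comparison also spans transduction and selection. A change in RNA per cell and a change in the mix of cells cannot be told apart in these bulk samples.

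X inactivation is set up as pluripotent cells differentiate: Xist RNA coats 1 X in cis, and genes along it lose expression while the other X stays active. Setdb1 deposits H3K9 methylation, a repressive histone mark. The proximal X carries many broadly expressed genes, including the ubiquitin-activating enzyme gene Uba1, the deubiquitinase gene Usp9x, the corepressor gene Bcor and the Mediator gene Med14. It also carries the ES cell Ras gene Eras. The question put to these genes was how far CAST transcripts fell relative to maternal ones during differentiation, and whether Setdb1 hairpins altered that fall.

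Each measurement is the number of reads with the CAST base or the maternal base at a SNP, called 129 here. The exonic SNPs below are the deepest coding SNPs of 7 genes on which the results turn, as 29 bases of the GENCODE vM21 transcript (mm10 positions) with the 129 base in capitals at position 15. They show what separates the alleles at the sites counted, and each substitution names the 129 base, the position from the 5′ end and the CAST base, on the strand of the gene.
Pim2, X position 7881409, plus strand: gatctcttcgactaTatcacagagaaggg
Pcsk1n, X position 7923079, plus strand: tcgccccaggcgccGgcacgccgcctcct
Hdac6, X position 7931588, minus strand: gagaaactgagccaAcgcctccagcctcg
Tbc1d25, X position 8155105, minus strand: ctccacctcttctcGgcccgattccccat
Ebp, X position 8190221, minus strand: ttgtctagccgagcTtccgtcgtcccact
Tspan7, X position 10585600, plus strand: cgaaactgactgcaAtcccctggatctgc
Uba1, X position 20680787, plus strand: gcctctgttgatgaCagccgtcttgagga
The substitutions are T15C in Pim2, G15T in Pcsk1n, A15T in Hdac6, G15A in Tbc1d25, T15C in Ebp, A15G in Tspan7 and C15T in Uba1. Those in Hdac6, Tbc1d25 and Tspan7 change the amino acid, and the other 4 do not. Of the 363 SNPs, 74.9% were transitions, against 70.5% of all 2239.

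Libraries held 32972 to 101511 reads over all X SNPs, and 5855 to 18838 over the SNPs below 30 Mb, which is 15.3% to 18.6%. The shallowest was the second Nons library of day 5. Among SNPs with at least 10 reads, the median SNP had 17 to 33 reads, so a single SNP was imprecise. Within genes, 162 SNPs (46.3% of the 350) lay under 100 bp, the read length, from another SNP of their gene and could share reads. Because single SNPs were imprecise, genes were summed over their SNPs. Of the 58 genes, 42 reached 10 reads in all 14 libraries and were tested, among 247 genes of the whole X. The sums do not remove shared reads: a read covering several SNPs of a gene was added at each of them. Gene read numbers, and totals built on them, can therefore exceed the number of distinct reads, and counts within a gene are not independent. With 1 SNP per gene, 20 of the 42 could be tested, and those results are in the closing section. The pluripotency gene Nr0b1, which lies elsewhere on the X, had 588 to 1128 reads at day 0, 338 to 1288 at day 3 and 8 to 39 at day 5, so the day 5 libraries were the lowest. The listed marker genes of blood and neurons had no SNP in the table, and those cell types could not be checked.

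In cells without a Setdb1 hairpin, the alleles of the proximal X were close to balance. The Xi/Xa ratio is the CAST count plus 1 over the 129 count plus 1, on a log2 scale, and its library median is over SNPs of 10 reads or more. The median was 0.0 in both day 0 libraries, 0.14 and 0.19 in the Nons libraries of day 3, and -0.29 and 0.0 in those of day 5. SNPs at or above 30 Mb gave -0.14 and -0.05, then 0.0 and 0.0, then -0.51 and -0.29.
Within each replicate the proximal median was higher at day 3 than at day 0, and lower at day 5 than at day 3. The mean difference from day 0 to day 3 was 0.16 ± 0.04 (SD, n = 2), but it was 0.01 when SNPs with at least 5 reads were taken. The mean difference from day 3 to day 5 was -0.31 ± 0.17 (SD, n = 2) below 30 Mb and -0.40 ± 0.15 (SD, n = 2) in the remaining X. The proximal median was 0.05 to 0.29 above that of the remaining SNPs in 13 libraries, and equal to it in the first shSetdb1.6 library of day 3. The offset was there at day 0, and no test was made of it.

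**Figure D1:**
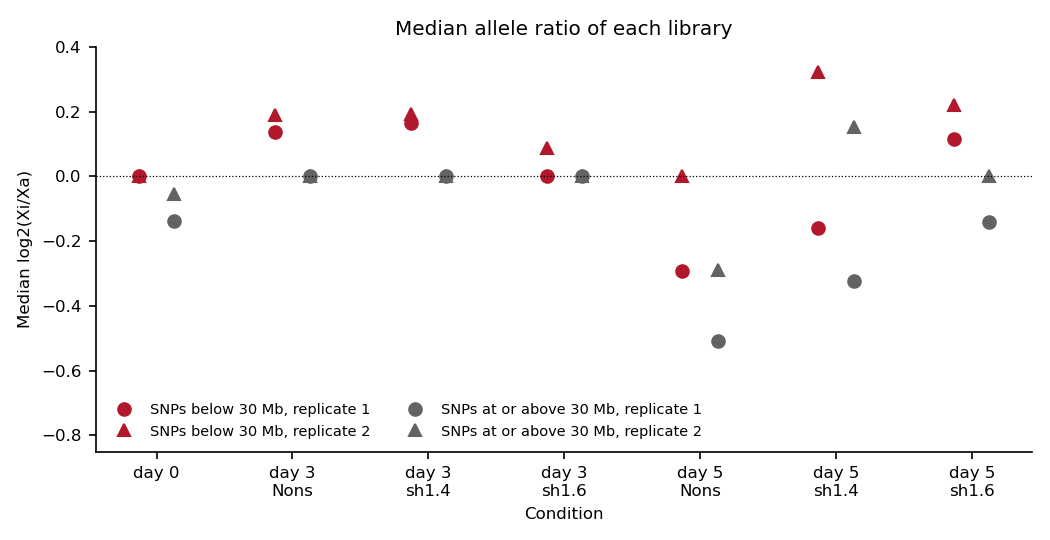
Median log2 Xi/Xa ratio (y axis) of SNPs with at least 10 reads in the 14 libraries, by condition (x axis), for SNPs below 30 Mb (red) and at or above 30 Mb (grey); circles are replicate 1 and triangles replicate 2. The first Nons library of day 5 has the lowest proximal median, -0.29, and the hairpin libraries of day 5 lie above the Nons library of their replicate.

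From day 0 to day 3 in Nons cells, no gene of the region was called for its allele ratio. None of the 42 genes passed the test of edgeR (quasi-likelihood, Benjamini-Hochberg adjusted), and neither did any of the 247 (0.0% called). At an unadjusted p under 0.05 there were 3, Rpgr (a ciliary gene), Tbc1d25 and Med14, and 4.45% of all genes passed at that level. DESeq2 called 0 of the 42. The differences of Rpgr, Tbc1d25 and Med14 were 0.93, 0.70 and 0.73 on the log2 scale. The median difference over the 42 genes was 0.06, beside 0.04 over all 247. It was 0.20 without the first day 0 library and turned to -0.03 without the second.

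From day 3 to day 5, CAST transcripts of 4 proximal genes fell relative to 129 transcripts in Nons cells. They were Pim2, encoding a serine/threonine kinase, Hdac6, a cytoplasmic deacetylase of tubulin, Pcsk1n, the precursor of a prohormone convertase inhibitor, and Tbc1d25, a GTPase-activating protein for Rab proteins. None of the 42 rose. Lower calls made up 9.72% of all 247 genes (4 of 42 is 9.52%), and calls in either direction 10.1%, so the proximal genes were called about as often as the whole X. The median difference was -0.25 over the 42 genes and -0.33 over all 247, and 29 of the 42 had a lower ratio at day 5. Leaving out each library compared gave medians of -0.31 to -0.10 over the 42 and of -0.38 to -0.25 over all. The -0.10 came without the first Nons library of day 5.

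Pim2 had log2 ratios of 0.42 and 0.53 in the Nons libraries of day 3 and of -0.22 and -0.04 in those of day 5. The groups did not overlap, and day 0, at 0.33 and 0.67, lay with day 3. The fitted difference was -0.58 ± 0.20 (SE), with an adjusted p of 0.0399 by edgeR (quasi-likelihood, Benjamini-Hochberg adjusted).
Hdac6 had ratios of 0.18 and 0.41 at day 3 and of -0.42 and -0.04 at day 5, again without overlap. Its difference was -0.54 ± 0.19 (SE), with an adjusted p of 0.0465 in the same edgeR test.
Pcsk1n went from 0.45 and 0.95 to -1.09 and -0.69, the largest fall among the 42 genes in this comparison. Its difference was -1.68 ± 0.46 (SE; edgeR adjusted p = 0.00536), and its day 0 libraries were already unlike each other, at 1.89 and 0.51.
Tbc1d25 went from 1.32 and 1.07 to -0.13 and -0.19, a difference of -1.27 ± 0.36 (SE; edgeR adjusted p = 0.00649). Unlike in the other 3 genes, both day 0 ratios, 0.46 and 0.50, lay below both of day 3.

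**Figure D2:**
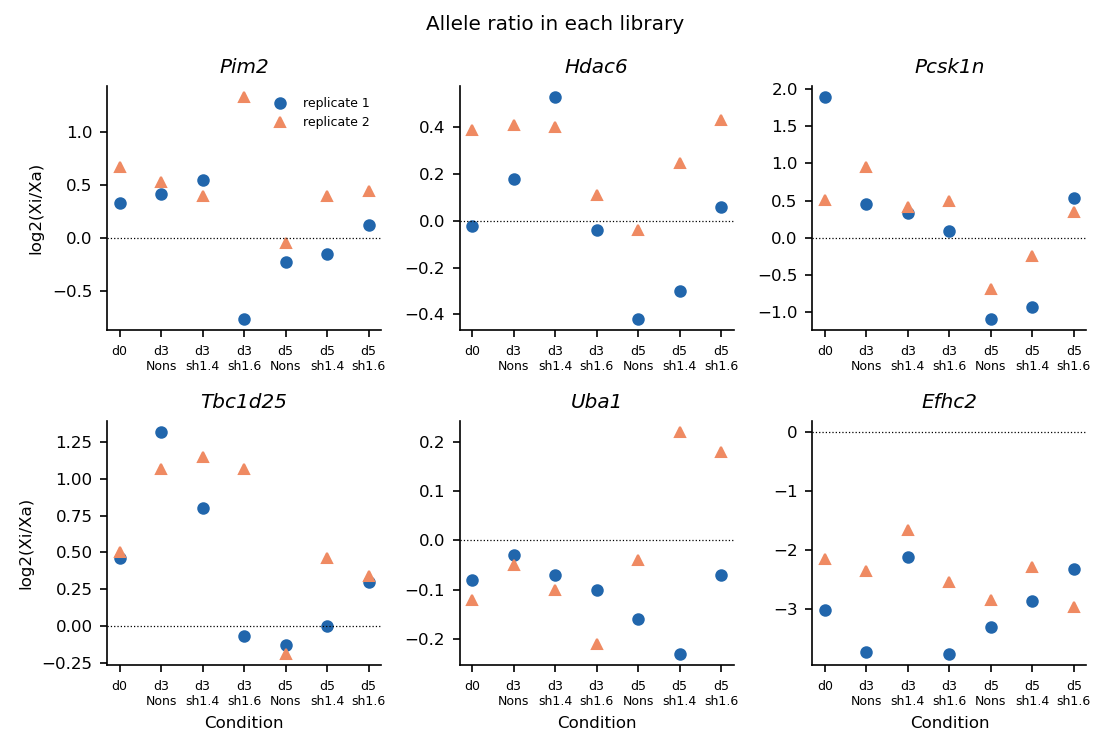
Log2 Xi/Xa ratio (y axis, scaled for each gene) of 6 proximal genes in every library, by condition (x axis); blue circles are replicate 1 and orange triangles replicate 2. Pim2, Hdac6, Pcsk1n and Tbc1d25 fell in Nons from day 3 to day 5, Uba1 stayed between -0.23 and 0.22, and Efhc2 stayed at or below -1.67 in every library.

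These 4 calls rest on few libraries. Without the first Nons library of day 5, none of the 42 genes was called. Without the second, or without the first Nons library of day 3, 1 was called, and without the second Nons library of day 3, 2 were. The differences themselves stayed negative in all 4 cases, at -1.90 to -1.45 for Pcsk1n, -1.61 to -1.01 for Tbc1d25, -0.75 to -0.46 for Pim2 and -0.59 to -0.47 for Hdac6. Of all 247 genes, 10 were called in the first case, 13 and 12 in the next and 13 in the last. DESeq2 called 0 of the 42 and 8 of the 247, with 3 and 37 at an unadjusted p under 0.05. Without the replicate term 2 were called, Pcsk1n and Tbc1d25, and 18 of the 247. When each library was centred on its own median over the whole X, the median of all genes moved from -0.33 to 0.03, and the 4 genes were no longer called. Their centred differences were -1.32 for Pcsk1n, -0.89 for Tbc1d25, -0.24 for Pim2 and -0.18 for Hdac6. The calls were then Uba1 and Usp9x, which were higher by 0.30 and 0.51 relative to the X as a whole, among 10 higher and 10 lower of the 247.

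Uba1 and Usp9x, the 2 genes with most reads, were not called. Uba1 had ratios of -0.03 and -0.05 in Nons at day 3 and of -0.16 and -0.04 at day 5, on 31240 reads over all libraries. Its difference was -0.06 ± 0.16 (SE), and its direction turned without the first Nons library of day 3 and with centred ratios.
Usp9x, with 18822 reads, had ratios of -0.14 and -0.23 at day 3 and of 0.07 and -0.35 at day 5, so the day 5 values lay on both sides of those of day 3. Its difference was 0.10 ± 0.18 (SE), turning to -0.20 without the first Nons library of day 5.
The kinase gene Araf and the nucleotide sugar transporter gene Slc35a2 had larger differences, -0.90 ± 0.38 and -1.18 ± 0.53 (SE), on fewer reads. Both had an unadjusted p under 0.05 but adjusted p-values of 0.103 and 0.132 in edgeR (quasi-likelihood, Benjamini-Hochberg adjusted). The interval below 9 Mb held the 4 called genes among its 20 tested genes, with a median difference of -0.36. The 9 genes from 9 to 16 Mb had a median of -0.05 and the 13 from 16 to 30 Mb a median of -0.33, and neither held a call. These boundaries were set after the values were seen.

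At day 3 no difference in allele ratio between Setdb1 hairpins and Nons was detected in the proximal genes. None of the 42 genes was called, nor any of the 247 (0.0% called), by edgeR (quasi-likelihood, Benjamini-Hochberg adjusted). The count at an unadjusted p under 0.05 was 0, and DESeq2 called 0. The median difference was -0.03, with 19 genes higher and 23 lower. Library medians were 0.17 and 0.19 for shSetdb1.4, then 0.0 and 0.09 for shSetdb1.6. Of the 42 genes, 1 (2.38%), Bcor, was higher in all 4 hairpin libraries than in the Nons library of its replicate, beside 8.1% of all genes. Lower in all 4 were 4 (9.52%), beside 9.31%.

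At day 5 the proximal genes mostly had a higher CAST to 129 ratio with the hairpins, without any gene passing the test. Of the 42 genes, 34 had a higher ratio (81.0%, beside 83.4% of all genes tested), and the median difference was 0.35, as it was over all 247. Leaving out each day 5 library gave medians of 0.17 to 0.40 over the 42 and of 0.27 to 0.43 over all. The 0.17 came without the first Nons library, where 27 of the 42 were higher. No proximal gene was called by edgeR (quasi-likelihood, Benjamini-Hochberg adjusted), where 10 of 247 (4.05%) were on the whole X. That whole-X count was 0 without the replicate block and 1 with DESeq2. At an unadjusted p under 0.05 there were 8, which is 19.0% of the 42 against 25.1% of all genes, and DESeq2 called 0 with 2 at that level. The comparison shares its Nons libraries with day 5 against day 3, so a low Nons value enters both.

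The 8 genes were Atp6ap2, Usp9x, Pim2, Elk1, Ftsj1, Tfe3, Hdac6 and Pcsk1n, and all 8 were higher. Elk1, an ETS transcription factor gene, had ratios of -0.96 and -0.70 with Nons, -0.26 and 0.02 for shSetdb1.4, then -0.27 and -0.05 for shSetdb1.6. All 4 hairpin libraries lay above both Nons libraries, by 0.65 to 0.72 within replicates. The fitted difference was 0.75 ± 0.33 (SE), with an adjusted p of 0.135 in edgeR (quasi-likelihood, Benjamini-Hochberg adjusted).
Atp6ap2, an accessory subunit of the vacuolar proton pump, had ratios of 0.01 and -0.96 with Nons, 0.31 and 0.25 for shSetdb1.4, then 0.18 and 0.32 for shSetdb1.6. Here the Nons libraries were far apart and the 4 hairpin libraries close together. The difference was 0.56 ± 0.23 (SE; edgeR adjusted p = 0.135).
Ftsj1, a tRNA methyltransferase gene, had -1.06 and -0.49 with Nons, -0.58 and 0.29 for shSetdb1.4, then -0.63 and 0.02 for shSetdb1.6. Each hairpin library was 0.43 to 0.77 above the Nons library of its replicate, though the groups overlapped. The difference was 0.60 ± 0.27 (SE; edgeR adjusted p = 0.137).

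Usp9x was above Nons of its replicate by 0.09 and 0.91 for shSetdb1.4, then by 0.15 and 0.50 for shSetdb1.6, a fitted difference of 0.36 ± 0.16 (SE). For Tfe3, a transcription factor gene of the MiT family, the 4 differences were 0.04, 0.52, 0.48 and 0.52. In both genes the first shSetdb1.4 library was the one nearest to Nons. Pcsk1n, which had the largest fall in Nons, had the largest fitted difference here, 0.96 ± 0.47 (SE), from differences of 0.17 and 0.45 for shSetdb1.4, then 1.63 and 1.04 for shSetdb1.6. Pim2 and Hdac6 had differences of 0.35 ± 0.15 and 0.35 ± 0.17 (SE), and Tbc1d25 of 0.42 ± 0.34.
Gripap1, which encodes a GRIP1-associated protein, had the largest difference in the other direction, -0.84 ± 0.47 (SE), on 607 reads. Uba1 differed by 0.13 ± 0.14 (SE). In all, 20 of the 42 genes (47.6%) were higher than Nons in all 4 within-replicate differences, beside 49.8% of the 247, and 2 (4.76%) were lower in all 4, beside 2.43%.

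A single library decides whether any proximal gene is called at day 5. The count of 8 at an unadjusted p under 0.05 became 2 without the second shSetdb1.4 library, 3 without the first Nons library, 5 without the first shSetdb1.6 library and 15 without the first shSetdb1.4 library. Without the first shSetdb1.4 library, edgeR's quasi-likelihood test called 6 of the 42 genes and 52 of the 247. The 6 were Tfe3, Pim2, Hdac6, Ftsj1, Usp9x and the kinase gene Cdk16, and none was lower. The median of that library was -0.16, the lowest of the 4 hairpin libraries, and 0.13 above Nons of its replicate. With each hairpin alone, 0 of the 42 were called, with 5 and 7 at an unadjusted p under 0.05 for shSetdb1.4 and shSetdb1.6. Of all 247 genes, 0 and 3 were called, with 56 and 50 at that level. With centred ratios the median difference of the 42 became -0.01, 0 were called, and Usp9x and Uba1 turned negative.

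**Figure D3:**
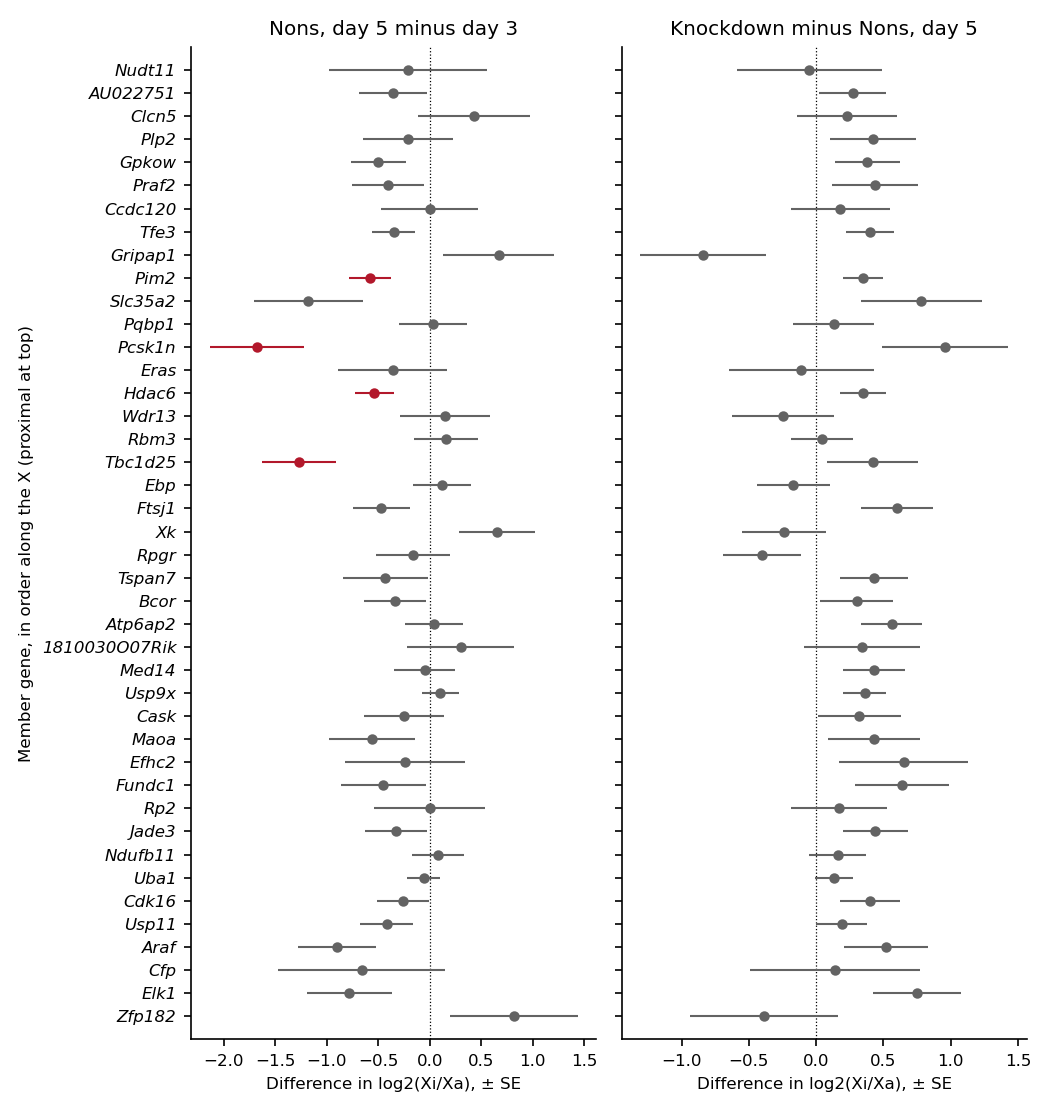
Fitted difference in log2 Xi/Xa ratio (x axis; bars are ± 1 SE) of the 42 tested genes, in order along the X from the top, for Nons day 5 minus day 3 (left) and hairpins minus Nons at day 5 (right); red marks an adjusted p under 0.05. The 4 red genes on the left are Pim2, Pcsk1n, Hdac6 and Tbc1d25, and 34 of 42 genes lie above 0 on the right with none red.

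The change in the hairpin effect from day 3 to day 5, tested as an interaction, was not called for any of the 42 genes by edgeR's quasi-likelihood test, against 2 of 247 (0.81%). At an unadjusted p under 0.05 there were 4, Pcsk1n, Ftsj1, Fundc1 and Slc35a2, beside 32 of the 247. DESeq2 called 0. Their differences were 1.34, 0.74, 1.09 and 1.28 on the log2 scale, with the higher values at day 5. Pcsk1n, Fundc1 and Slc35a2 were below Nons in all 4 hairpin libraries at day 3 and above it in all 4 at day 5, so both days enter these differences. Fundc1, for example, had -0.18, -0.22, -0.42 and -0.72 at day 3 and 0.41, 0.28, 0.99 and 0.12 at day 5. The median over the 42 genes was 0.28, beside 0.33 over all 247.

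The ratios were also tested at single SNPs. Of the 363 SNPs, 85 reached 10 reads in all libraries, among 580 on the whole X. None of the 85 was called by edgeR (quasi-likelihood, Benjamini-Hochberg adjusted) in Nons from day 3 to day 5, where 2.93% of all were, nor with the hairpins at day 5, where 0.345% were. At an unadjusted p under 0.05 the counts were 11 and 14 of 85, beside 84 and 103 of 580, and DESeq2 called 0 of the 85 in both. In Nons 27 of the 85 SNPs were higher at day 5 (31.8%, beside 26.4% of all), and with the hairpins 75 were (88.2%, beside 84.5%).
By the rule that a SNP is higher with both hairpins than with Nons in both replicates, 36 of 127 covered proximal SNPs qualified at day 5. That is 28.3% (95% Wilson interval 21.2% to 36.7%, for counting error only), beside 32.6% of all covered SNPs. The interval takes SNPs as independent, though SNPs of 1 gene can share reads, and it does not cover a change of rule. The proximal share was 41.7% among SNPs with at least 20 reads and 14.2% with centred ratios, both outside that interval, beside 37.7% and 13.6% of all SNPs under those rules. In the opposite direction there was 1 SNP, in Ebp, 0.787% beside 2.36% of all. At day 3 the counts were 10 and 10 of 120, and 9.01% of all SNPs were higher.
The 36 SNPs lay in 19 of 34 covered genes. Pim2 had 4 of its 6 covered SNPs, Atp6ap2 3 of 4, Tspan7 3 of 4 and Tfe3 3 of 6. Hdac6 had 4 of 14, Usp9x 2 of 11 and Usp11 1 of 10, so within 1 gene some SNPs met the rule and others did not. A SNP that failed the rule need not have gone the other way, and no gene had SNPs meeting it in both directions. SNPs of 1 gene share its RNA and are not replicates.

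A few genes were far from balance whatever the condition. Efhc2, an EF-hand domain gene, had log2 ratios from -3.77 to -1.67 over the 14 libraries, with a median of -2.70. All 5 of its SNPs gave the same direction, from -2.84 to -2.19 on summed reads. 1810030O07Rik ranged from -2.92 to -1.25, with SNPs from -2.17 to -1.83. These were 2 of 4 tested genes on the whole X (1.62% of 247) that stayed beyond 2-fold on the 129 side in every library. Both genes were singled out after their values were seen, and neither was called in any allele comparison.
Rp2, whose product activates the GTPase of Arl3, and Jade3, a PHD finger gene, also stayed below 0 in all 14 libraries, at -1.22 to -0.34 and -0.94 to -0.10. On the CAST side, the complement gene Cfp (properdin) had a median of 1.11, with 1 library at -0.65.

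**Figure D4:**
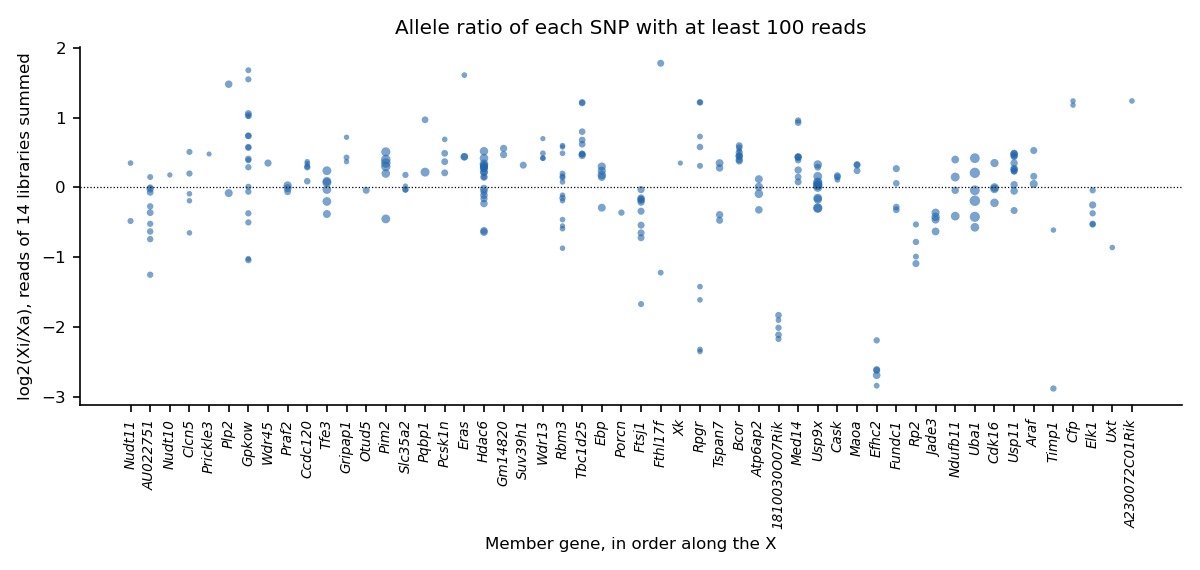
Log2 Xi/Xa ratio (y axis) of each proximal SNP with at least 100 reads summed over the 14 libraries, grouped by gene in order along the X (x axis); larger points have more reads. Efhc2 and 1810030O07Rik lie at or below -1.83 at every SNP, while Rpgr and Gpkow have SNPs on both sides of 0.

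SNPs of a gene did not always share a ratio. In 43 genes with at least 2 SNPs of 100 reads, the range between SNPs had a median of 0.63 and was over 1 in 11 genes. Rpgr had the widest, from -2.35 to 1.22. Its 4 SNPs from 10210612 to 10210653 lay between -2.35 and -1.42, and the next SNP, at 10210717, was at 0.31. Gpkow, a spliceosome-associated gene, ranged from -1.04 to 1.68 over 18 SNPs, and Bcor only from 0.38 to 0.60 over 9. Rpgr and Gpkow ratios are therefore sums over unlike SNPs, and what sets the SNPs apart was not tested.

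More genes were called for their totals, the reads of both alleles as CPM of the reads over all tested X genes after TMM scaling. A CPM is thus relative to the other X-linked genes. From day 0 to day 3 in Nons, 5 of the 42 genes were called, 3 higher and 2 lower, by edgeR (quasi-likelihood, Benjamini-Hochberg adjusted). On the whole X, 9.72% were called, 4.45% higher and 5.26% lower. Eras rose from 298 and 954 CPM to 1841 and 3004, 3.89-fold (log2 1.96 ± 0.45 SE; edgeR adjusted p = 0.0260). Pcsk1n rose 2.92-fold and Med14, a scaffold subunit of Mediator, 1.97-fold. Plp2, a membrane proteolipid gene, and Cfp fell by 1.15 and 1.51 on the log2 scale. The log2 difference of Eras was 1.35 without the first day 0 library and 3.03 without the second, and that of Pcsk1n was 2.34 without the first. Pcsk1n was not called when any 1 of the 4 libraries was left out. Leaving out a library gave 0 genes without the second Nons library of day 3, 1 without the first day 0 library, 3 without the first Nons library of day 3, and 8 without the second day 0 library. With the replicate block it was 8.

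From day 3 to day 5 in Nons, 15 of the 42 genes changed in total, 8 up and 7 down. On the whole X, 27.9% were called, 14.6% higher and 13.4% lower, by edgeR (quasi-likelihood, Benjamini-Hochberg adjusted). Ebp, a sterol isomerase of cholesterol synthesis, fell from 7143 and 8602 CPM to 1918 and 2611, well clear of overlap (log2 -1.82 ± 0.27 SE; edgeR adjusted p = 0.000348). Eras fell from 1841 and 3004 CPM to 348 and 503, between its 2 day 0 libraries (log2 -2.58 ± 0.49 SE; edgeR adjusted p = 0.00187). The log2 differences of Ftsj1, Tbc1d25, Gpkow and Hdac6 were -1.34, -1.82, -0.85 and -0.72.
Tspan7, a tetraspanin of the cell surface, rose most, from 1072 and 439 CPM to 2972 and 4435 (log2 2.32 ± 0.40 SE; edgeR adjusted p = 0.000921). Clcn5, a chloride/proton exchanger of endosomes, rose from 567 and 398 CPM to 1198 and 1069, 2.40-fold. Plp2 rose back, 2.18-fold, Med14 1.72-fold and Rp2 2.61-fold. Pim2 rose from 4634 and 8341 CPM to 11038 and 37932, but its day 5 replicates were far apart (log2 1.90 ± 0.63 SE). It was not called without the second Nons library of day 5 (0.76), or without the first (1.55) or second (2.39) of day 3, and its difference was 2.54 without the first of day 5. So the total of Pim2 rose while its CAST share fell, and in Hdac6, Pcsk1n and Tbc1d25 both fell. The count was 5 without the second Nons library of day 3 and 8 without the first of day 5. Of the genes named here, Ebp, Eras, Ftsj1 and Tspan7 were called whichever of the 4 libraries was left out, and each of the others lost its call without at least 1. Tspan7 had a difference of 3.06 without the first Nons library of day 3.

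Pcsk1n and Eras overlap at their 3′ ends on opposite strands, from 7924276 to 7924410, and moved together, up at day 3 and down at day 5. Their SNPs lie outside the overlap, and no source says that strand was used in counting, so reads of the partners cannot be told apart where they overlap. Plp2 and Prickle3 overlap in the same way.

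**Figure D5:**
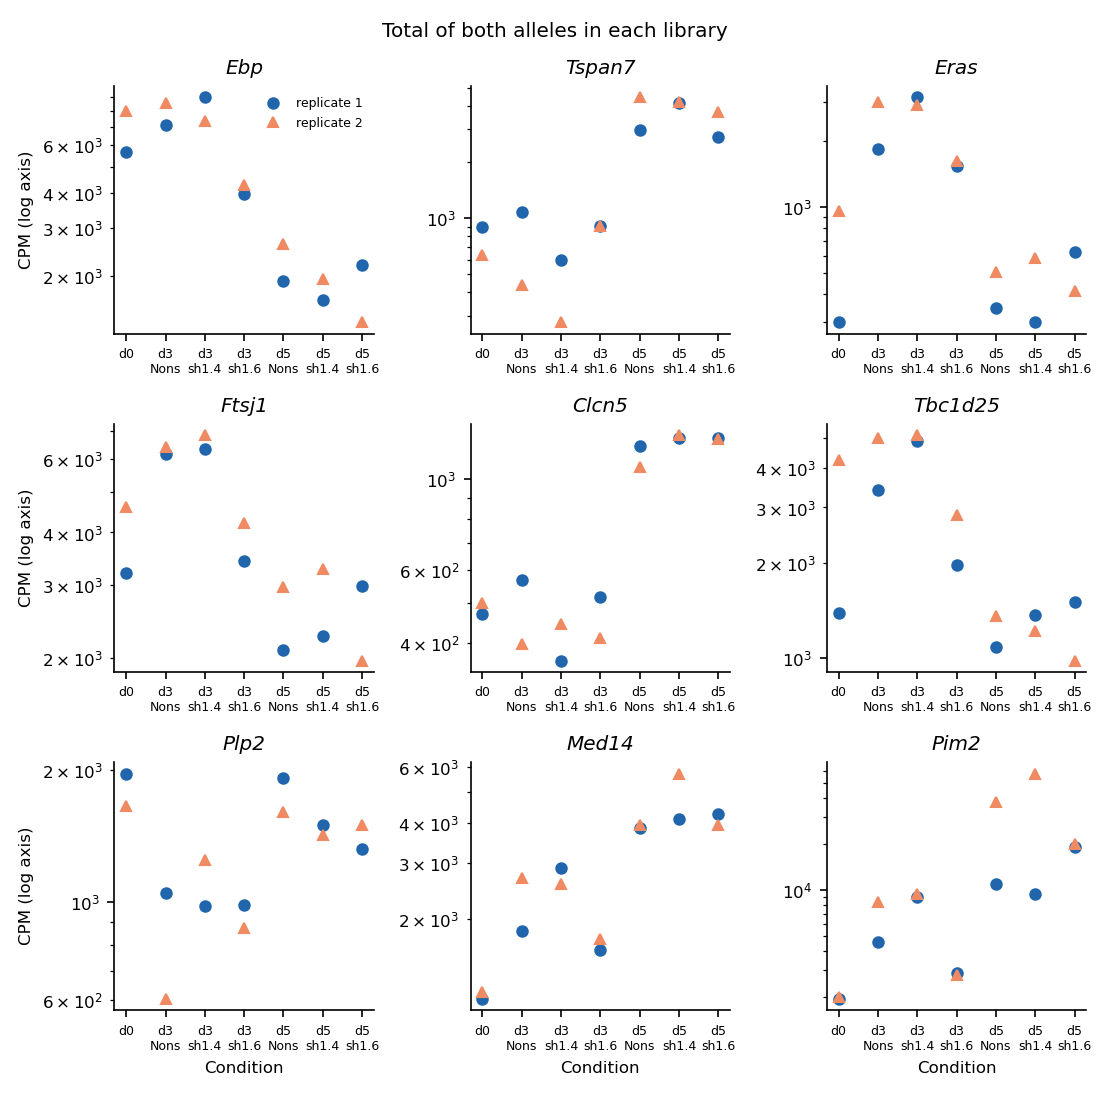
Total of both alleles (y axis, CPM on a log axis scaled for each gene) of 9 proximal genes in every library, by condition (x axis); blue circles are replicate 1 and orange triangles replicate 2. Ebp, Eras, Ftsj1 and Tbc1d25 are lower and Tspan7, Clcn5 and Med14 higher at day 5 than at day 3 in Nons, and day 5 hairpin libraries lie near day 5 Nons except for Pim2.

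With the hairpins, no total of the 42 genes was called at day 3 or at day 5, nor any of the 247 (0.0% called in both), by edgeR (quasi-likelihood, Benjamini-Hochberg adjusted). The counts at an unadjusted p under 0.05 were 0 and 0, and DESeq2 called 0 in both. With both hairpins pooled, the widest differences were -0.43 for Ebp at day 3 and -0.71 for Cfp at day 5, with SEs of 0.22 and 0.33. At day 3 the fitted values of Ebp against Nons were 0.05 ± 0.25 (SE) for shSetdb1.4 and -0.92 ± 0.26 (SE) for shSetdb1.6. For shSetdb1.6 alone at day 3, 0 of the 42 and 0 of the 247 were called, with 3 and 21 at an unadjusted p under 0.05. Ebp had 1918 and 2611 CPM with Nons at day 5, 1627 and 1946 for shSetdb1.4, then 2197 and 1350 for shSetdb1.6, which overlap.

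The genes can also be read by function, in lists chosen with earlier results known. In chromatin and transcription, 8 of 12 genes were tested, none was called for its allele ratio, and the median differences were -0.19 in Nons from day 3 to day 5 and 0.35 with the hairpins at day 5. Those medians were -0.33 and 0.35 over all genes. Med14 was the 1 gene of the 8 called for its total, in both Nons comparisons, where 9.72% and 27.9% of all genes were. Suv39h1, an H3K9 methyltransferase gene, had 340 reads in 1 SNP and was not tested. In membrane traffic, kinases and cytoskeleton, 14 of 23 were tested. Of these, 3 fell in allele ratio in Nons at day 5 (Pim2, Hdac6 and Tbc1d25), beside 9.72% of all genes. With the hairpins 12 of the 14 had a higher ratio, beside 83.4% of all genes, and the median was 0.38, beside 0.35. In totals 4 rose (Plp2, Pim2, Tspan7 and Rp2) and 2 fell, beside 14.6% and 13.4% of all genes.
The ubiquitin list had 3 tested genes of 5, Uba1, Usp9x and Usp11, with none called, and medians of -0.06 and 0.19. The mitochondrion and energy list had 4 of 8, with none called. These were Ndufb11 of complex I, Fundc1, Maoa and Atp6ap2, which belongs to the vacuolar proton pump and not to the mitochondrion. All 4 had a higher ratio with the hairpins, beside 83.4% of all genes, with a median of 0.50, and with shSetdb1.4 alone 3 had. Of the RNA binding list 2 of 4 were tested, Ftsj1 and the cold-inducible Rbm3, and of the lipid list 1 of 3, Ebp. None of the 8 genes of the germline list had a SNP here.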

How the data were processed

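The deposited table holds, per X-linked SNP and library, counts of reads with either base. The authors aligned 100 bp single-end reads (TruSeq v2) to mm10 with Subread and counted bases by samtools pileup. The submitters' processing notes name CASAVA 1.8.2 and SAMtools. The mm10 base is called 129. That the maternal X (dams 129/C57 in the labels, 129 in the methods) carries it at every listed SNP is assumed, not tested, and the sign of every ratio rests on this. Alignment to a genome with that base may favour it. Of the per-sample columns, 28 were used and 4 that match no sample were not. SNPs were assigned to genes by exon (GENCODE vM21). SNPs in exons of 2 genes, or of none, entered no gene sum. Intervals cover counting error only and take SNPs as independent.

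Counts were tested with edgeR 4.0.16 (R 4.3.3), quasi-likelihood, Benjamini-Hochberg over all genes or SNPs of the X with at least 10 reads in every library, at an adjusted p under 0.05. Allele ratios were fitted with a term per library, an allele effect per condition and an allele effect of the replicate, because the methods compare hairpins with Nons within each experiment. Totals were TMM-scaled, without a replicate block. DESeq2 1.42.0 and the other alternatives are in the closing section. The scripts were tested on simulated data.

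Members and lists were chosen with earlier results of these data known. Genes named are the 12 members with most reads, up to 8 members called per comparison in order of p, and tested list genes. Efhc2, 1810030O07Rik and AU022751, and SNP examples, were chosen after their values were seen.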

Additional observations from a re-analysis of the deposited data

How the results depend on the processing

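The main limit is 2 libraries per condition and few reads per SNP, and centring removes the shift shared by the whole X. Leaving out a library leaves 1 in its condition, which is assumed to vary like the others. Counts of called members are given first. For allele ratios of Nons at day 5 against day 3 (4 called), 1 SNP per gene, with 20 members tested, and DESeq2 gave 0, centred ratios 2, and the fit with no replicate block 2. Leaving out each library gave 0 to 2 there, and 0 to 6 for hairpins against Nons at day 5. It gave 0 to 0 for day 3 against day 0, for hairpins at day 3 and for the interaction. In the other allele comparisons the replicate block changed no count of proximal genes or SNPs, but over the whole X it did: with no replicate block, calls went from 10 to 0 for hairpins at day 5, from 2 to 0 for the interaction, and at SNPs from 17 to 10 in Nons and from 2 to 0 with hairpins. Deviations of replicates from their condition means correlated across genes between conditions by 0.0514 on average for ratios (-0.139 to 0.266). For ratios the numbers alone thus do not show a pairing. For totals the correlation was 0.208 (-0.0586 to 0.657). There the block raised whole-X calls in Nons from 24 to 38 for day 3 against day 0 and from 69 to 89 for day 5 against day 3. It left hairpins against Nons at 0. For SNPs in Nons (0 called), at least 20 reads gave 2 and centred ratios 1, and leaving out libraries gave 0 to 0 there and 0 to 1 with the hairpins.

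For totals of day 3 against day 0 (5 called), 1 SNP per gene gave 1, at least 30 reads 2, the replicate block 8, and leaving out libraries 0 to 8. For day 5 against day 3 (15), 1 SNP per gene gave 3, at least 30 reads 9, the replicate block 20, and leaving out libraries 5 to 12. For hairpins against Nons every setting run gave 0 at both days. For shSetdb1.6 against shSetdb1.4 at day 3 (1), the replicate block and DESeq2 gave 2 and leaving out libraries 0 to 0, and at day 5 all gave 0.

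The difference in library medians from day 0 to day 3 (0.16) was 0.01 with at least 5 reads, 0.12 over genes and 0.09 on summed counts, and 0.14 to 0.19 by replicate. From day 3 to day 5 it was -0.43 to -0.19 by replicate. With hairpins at day 3 (-0.05) it was 0.05 with at least 5 reads, -0.02 with at least 20, -0.03 over genes, 0.0 on summed counts, -0.04 with the 3 left-out genes, and -0.05 in each replicate. At day 5 (0.27) it was 0.24, 0.30, 0.27, 0.26 and 0.27 in that order, 0.28 with 0.5 added to counts, 0.27 in exons of 1 gene, and 0.27 in each replicate. The share of SNPs higher with both hairpins (28.3%) was 41.7% with at least 20 reads and 14.2% with centred ratios.

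Of 556 refitted values of 52 named results, 474 kept direction and call, 68 lost and 8 gained a call, and 6 turned. In Nons from day 3 to day 5, Uba1 turned to 0.30 with centred ratios. Leaving out each library gave -0.13 to 0.00 for Uba1, -0.20 to 0.29 for Usp9x and -0.77 to 0.04 for Gpkow, turning without the first Nons library of day 3 for Uba1 and of day 5 for the others. With hairpins at day 5, centred ratios turned Usp9x to -0.01 and Uba1 to -0.20. The cause was not tested.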

Other observations

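Some totals lay apart between the hairpin libraries of day 3, in a comparison added after the values were seen. Of the genes below, only AU022751 was called in the main edgeR test. Ebp had 8996 and 7390 CPM for shSetdb1.4 but 3992 and 4309 for shSetdb1.6, and 7143 and 8602 with Nons. Praf2, a membrane protein gene of the PRA1 family, had 1902 and 2294 CPM for shSetdb1.4, then 4148 and 3379 for shSetdb1.6. AU022751 had 1154 and 1694 CPM against 2748 and 3165. In all 3 genes the libraries of one hairpin lay apart from those of the other, but how many of all genes did so was not counted. Pim2 was at 9103 and 9500 CPM against 2878 and 2789, and Tbc1d25 at 4872 and 5081 against 1970 and 2843, with adjusted p-values of 0.161 and 0.172 by edgeR.

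For shSetdb1.6 against shSetdb1.4 at day 3, edgeR (quasi-likelihood, Benjamini-Hochberg adjusted) called 1 of the 42 genes, AU022751 (log2 1.05 ± 0.25 SE, adjusted p = 0.0490), and 4 of 247 (1.62%). Ebp (-0.98 ± 0.26 SE) had an adjusted p of 0.0924 and Praf2 (0.84 ± 0.24 SE) one of 0.119 in that edgeR test. With a replicate block, and with DESeq2, 2 genes were called, AU022751 and Ebp, and without any one of the 4 libraries 0 were. At day 5 the edgeR test called 0 of the 42 and 0 of 247, with 2 of the 42 at an unadjusted p under 0.05, and DESeq2 called 0. No cause was tested.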
